A study of Mus musculus with 18 samples.

Results

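Clone #B-20 is a TFEB knockout clone of WEHI-231 cells, a mouse B cell lymphoma line with an immature B cell phenotype and surface IgM as its B cell antigen receptor (BCR). Its late response to BCR ligation was taken here from 4 of the 18 libraries of the series, the 2 of the clone after 18 h and the 2 of the same clone left untreated, selected by their labels. Stimulated cells of all groups received F(ab')2 fragments of anti-IgM at 10 µg/ml, and untreated cells (0 h) received none. The groups set beside them were the clone after 6 h, the parental WEHI-231 cells (wild type for TFEB) and clone #A-59, another TFEB knockout clone, the latter both untreated and after 18 h, with 2 libraries per group from independent experiments. Each mutant line was grown from 1 cell after electroporation with Cas9 and a guide RNA to Tfeb, so that every value of clone #B-20 describes 1 clone, and differences between clones cannot be told apart from the loss of TFEB by this clone alone.

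As background, ligation of the IgM receptor activates SYK and BTK, and through them calcium and NFAT, NF-kB, ERK and PI3K signalling. In immature B cells such as WEHI-231, prolonged ligation without help from T cells is known for a fall of the growth regulator MYC, for growth arrest and for cell death. TFEB, with TFE3 and MITF, is a basic helix-loop-helix factor of the MiT/TFE family that binds E-box sequences in promoters of lysosome and autophagy genes.

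Untreated libraries of clone #B-20 held 15014347 and 16486797 counts and 18 h libraries 27472928 and 26984977, within a range of 11223588 to 29655262 over the series. Of 55487 genes in the files, 15318 had enough reads to be tested. Levels are given as CPM (counts scaled to a common library total, with TMM factors), in the order replicate 1, replicate 2, and changes as log2 fold changes ± SE from edgeR. A gene was called a DEG at an adjusted p (FDR) under 0.01 with a log2 fold change over 1 or under -1, and only such genes are said to have risen or fallen. The 10 B cell markers checked summed to 8386 and 8703 CPM in untreated cells and to 10920 and 11570 CPM at 18 h, with Cd79a at 993 and 1056 CPM before stimulation. Of 12 markers of T and NK cells only Cd8b1 passed the filter, at 47.6 and 48.8 CPM untreated and 56.5 and 54.6 CPM at 18 h. The defining T cell gene Trac stayed at or under 0.134 CPM in all 6 libraries of the clone. Of 12 myeloid markers 4 were tested, and their list summed to 3.75 and 5.08 CPM untreated and 8.99 and 8.95 CPM at 18 h. Among them Fcgr1, an activating Fc receptor, was called higher by 1.44 ± 0.40 (FDR = 0.00972, edgeR) from 0.736 and 0.620 CPM to 1.78 and 1.90 CPM, a call lost in each of the 4 fits that left out a library of the comparison, with changes of 1.32 to 1.53. Vim, the intermediate filament gene on the stromal list, rose by 1.21 from 94.6 and 121 CPM to 238 and 261 CPM, while 3 of the 10 stromal markers had no read in the clone. It was 1 of 3 stromal markers tested. The others, Col1a1 (1.67 ± 0.74) and Pdgfrb (1.58 ± 0.45), were not called.

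After 18 h the clone differed from its untreated state in 735 DEGs, 4.8% of the genes tested. Of these, 449 (2.93%) were higher and 286 (1.87%) were lower, with median log2 fold changes of 1.31 and -1.18. In each of the 735 genes both 18 h libraries lay on the same side of both untreated libraries. The calls came from these same libraries, so this is no separate support for them. Few changes were large: 55 of the higher and 25 of the lower genes exceeded 2 on the log2 scale. Without the fold threshold 1741 genes were higher (11.4%) and 1747 were lower (11.4%) at an FDR under 0.01, and the median over all genes tested was 0.0252. The plot of all genes tested shows the DEGs on both sides with Shank1, Plac8 and Fcmr among those of lowest adjusted p. In these bulk data, a change in RNA per cell and a change in the share of cells that express a gene cannot be told apart.

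**Figure D1:**
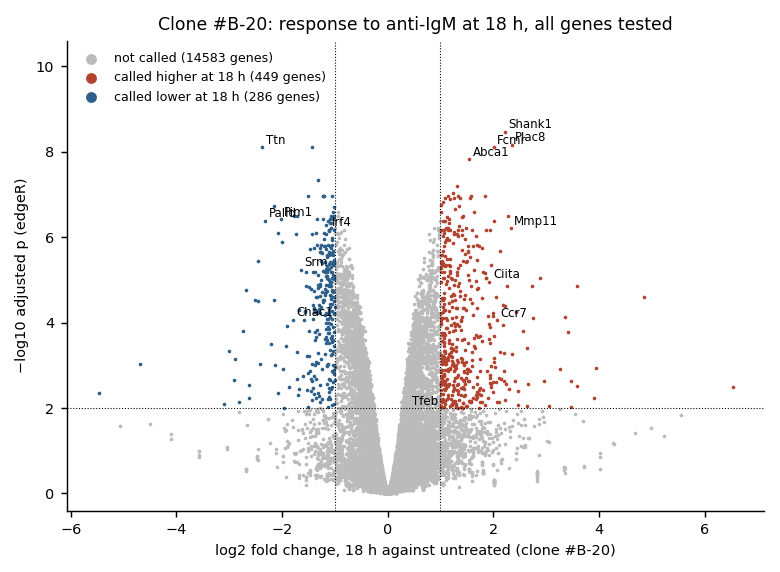
Each point is 1 of the 15318 genes tested in clone #B-20, with the log2 fold change of 18 h against untreated on the x axis and −log10 of the edgeR adjusted p on the y axis. Dotted lines mark the thresholds, and the coloured points are the 449 genes called higher and the 286 called lower.

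The replicates of the clone were not equal. At 18 h the genes called lower had a median difference from untreated cells of 1.33 and 1.44 log2 units downward in replicate 1 (against untreated replicates 1 and 2), but of 0.985 and 1.06 in replicate 2. Without replicate 1 of the 18 h group there were 401 DEGs (246 higher, 155 lower), and without replicate 2 there were 1018 (523 higher, 495 lower). Leaving out untreated replicate 1 gave 302 higher and 320 lower DEGs, and untreated replicate 2 298 and 208. Glycolysis and hypoxia genes set the replicates apart at both times. Their median, relative to the mean of the untreated libraries, was 0.186 in replicate 1 and -0.186 in replicate 2 of the untreated cells, and 0.547 and -0.349 at 18 h. Ero1a, an oxidase of the endoplasmic reticulum that responds to hypoxia, is an example chosen after its values were seen, with 352 and 213 CPM untreated and 637 and 197 CPM at 18 h. The part of this difference in the results below was not tested. Response and GC content of the transcript were related across genes (Spearman's rho 0.229 over 15191 genes, which are not independent), and with a GC correction the DEGs were 343 higher and 365 lower, so that the share of higher genes was 48.4% instead of 61.1%.

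**Figure D2:**
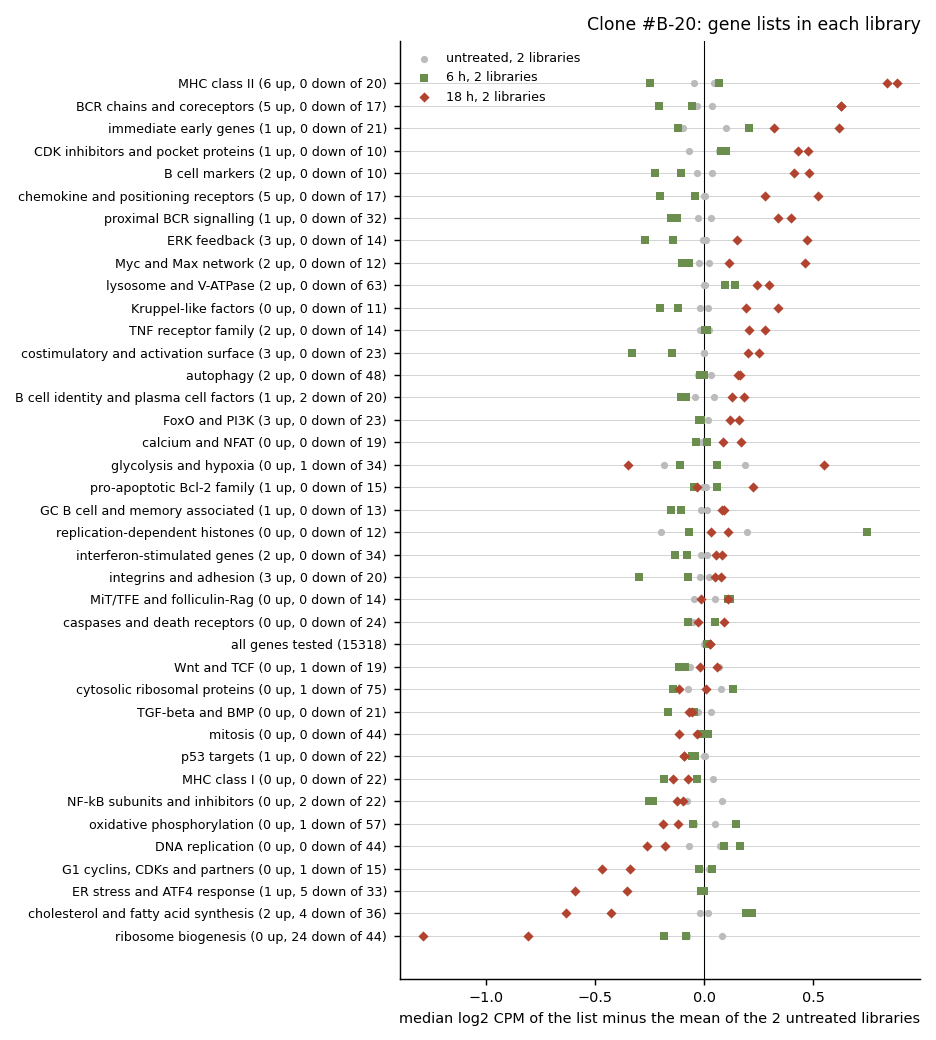
Median log2 CPM of each gene list with at least 10 genes tested, minus the mean of the 2 untreated libraries, in every library of clone #B-20 (grey circles untreated, green squares 6 h, red diamonds 18 h). Labels give the members called at 18 h of those tested; ribosome biogenesis lies lowest and MHC class II highest at 18 h, and both 18 h libraries of each lie on the same side of all other libraries of the clone.

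Tfeb itself (ENSMUSG00000023990, chr17:47737037-47792416, GRCm38) was read at 34.2 and 39.1 CPM in untreated and 42.3 and 54.1 CPM in 18 h cells of clone #B-20. The change of 0.39 ± 0.11 did not pass the threshold (FDR = 0.0102, edgeR). Parental cells held 79.2 and 82.8 CPM untreated and 99.7 and 99.9 CPM at 18 h, and clone #A-59 25.9 and 25.5 CPM, then 35.4 and 40.5 CPM. The mutant clones thus lay below parental cells in every library, yet retained Tfeb reads, and gene counts do not tell whether these transcripts are intact. The relative Tfe3 was not called (54.2 and 59.9 CPM untreated, 46.0 and 51.0 CPM at 18 h), and Mitf stayed under 2.5 CPM. None of the 14 tested genes of the MiT/TFE and folliculin-Rag list, which covers the nutrient-sensing complex at the lysosome, was called, with a list median of 0.0540. Of 63 lysosome and V-ATPase genes 2 rose and none fell (3.17% called higher, against 2.93% of all genes tested). At an FDR under 0.01 alone 26 were higher and 2 lower, against 11.4% of all genes tested in each direction, and 51 had a positive value, with a median of 0.296. The 2 were Gm2a, the activator protein of ganglioside degradation, at 1.81 and 1.86 CPM untreated and 9.49 and 7.2 CPM at 18 h (2.18 ± 0.30), and the lysosomal protease gene Ctsh, at 66.3 and 71.4 CPM, then 144 and 147 CPM (1.08 ± 0.10). Among 48 autophagy genes 2 rose and none fell (4.17% called higher, against 2.93% of all genes tested), with a median of 0.172. At an FDR under 0.01 alone 12 were higher and 3 lower. Calcoco1, a receptor for selective autophagy, rose by 1.53 ± 0.16, from 18.3 and 24.7 CPM to 69.0 and 55.2 CPM. Wdr45, which acts in autophagosome formation, rose by 1.02 ± 0.14, but lost its call without replicate 1 of either group (0.88 and 0.89).

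Ribosome biogenesis was the list with the largest share of DEGs. Its genes encode nucleolar factors that transcribe, modify and assemble ribosomal RNA and pre-ribosomes. Of 44 members, all of them tested, 24 fell and none rose, that is 54.5% against 1.87% of all genes, and 41 were lower at an FDR under 0.01. The list median was -1.04, and 43 of the 44 values were negative. Gnl3 (nucleostemin, ENSMUSG00000042354, chr14:31012433-31019131) had the largest change, from 455 and 481 CPM to 131 and 204 CPM (-1.48 ± 0.18, FDR = 1.46e-05, edgeR). Nolc1, a chaperone of small nucleolar ribonucleoproteins, was at 291 and 359 CPM untreated and 95.7 and 152 CPM at 18 h (-1.39 ± 0.18). In Heatr1, a factor of ribosomal RNA transcription and processing, 250 and 276 CPM compared with 75.2 and 126 CPM (-1.39 ± 0.19). Rrp1b (-1.40 ± 0.16), Rrp12 (-1.38 ± 0.22), Rrs1 (-1.32 ± 0.17, with 39.4% of its exon bases shared with a neighbouring gene), the helicase gene Ddx21 (-1.29 ± 0.17) and Wdr75 (-1.27 ± 0.15) followed. All 8 had lower values in both 18 h libraries than in both untreated ones, and in all 8 replicate 1 was the lower of the 18 h pair. Npm1 (-0.46 ± 0.12) and Ncl (-0.96 ± 0.12), abundant nucleolar proteins, stayed below the fold threshold. Polr1b, a subunit of RNA polymerase I, had the single positive value, 0.26 ± 0.09. Of 75 genes for structural proteins of the cytosolic ribosome 1 fell (1.33%, against 1.87% of all genes tested), and the median was -0.0616. It was Rpl26 (-1.40 ± 0.21), which was read at only 7.43 and 7.94 CPM and has near-identical copies that can take its reads. Without replicate 1 of the 18 h group 8 ribosome biogenesis genes were called lower, without untreated replicate 2 there were 15, and a fit of the compared libraries alone called 15. The value of Wdr75 without 18 h replicate 1 was -0.99.

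**Figure D3:**
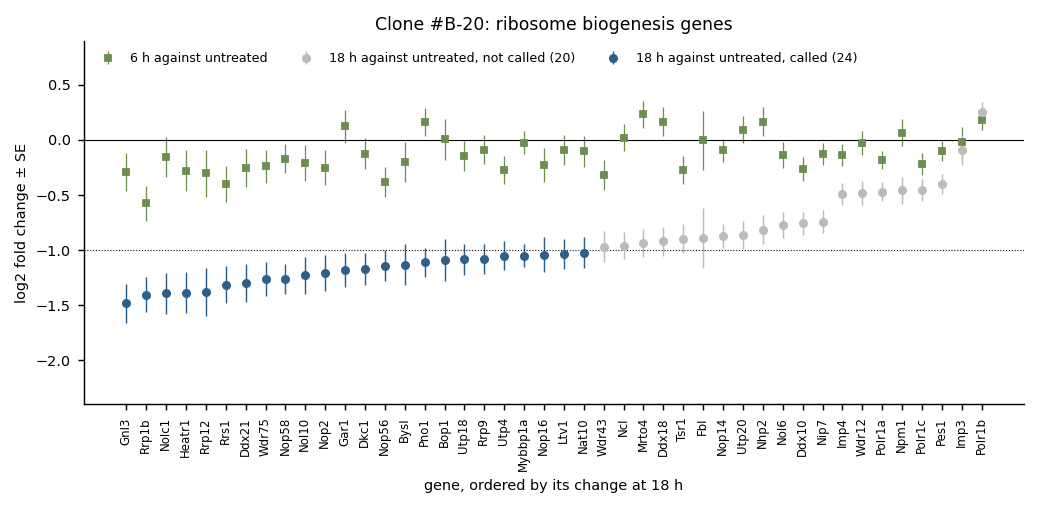
log2 fold change ± SE (edgeR) of the 44 ribosome biogenesis genes of clone #B-20 at 18 h (circles, blue where called) and at 6 h (green squares) against untreated cells. At 18 h 24 genes lie past the dotted line at -1, and at 6 h none does.

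E-box letters (CACGTG on either strand, a sequence bound by MYC-MAX and, with flanking preference, by MiT/TFE factors) were looked for in RefSeq promoters (GRCm38.p6, 250 bases before to 50 after the start), of which 216 matched a DEG that fell and 323 a DEG that rose. They were held by 18.1% of promoters of genes called lower, 7.12% of those called higher, 9.99% of the 10243 matched promoters of all genes tested and 7.24% of all RefSeq promoters. Among 38 matched ribosome biogenesis promoters 11 (28.9%) held them. The longer TCACGTG, which contains the same letters, was at 5.56%, 3.1%, 5.95% and 3.84% in the same order, in 4 of the 38 ribosome biogenesis promoters (10.5%) and in 3 of 25 promoters of cholesterol and fatty acid synthesis genes (12%). These shares describe letters and not binding. As examples, the 100 bases before the start are printed for 6 genes called lower that hold CACGTG in this stretch. They are in the direction of transcription, with CACGTG in capitals. Other ribosome biogenesis promoters held the letters elsewhere. In Ltv1, Pno1, Mybbp1a, Utp4, Utp20, Pes1, Tsr1 and Wdr43 they lay after the start, and in Imp4 121 bases before it. Nop2 (chr6:125131783-125131882, plus strand) and Utp18 (chr11:93885767-93885866, minus strand) are ribosome biogenesis factors. Slc20a1 (chr2:129198673-129198772, plus strand) encodes a phosphate transporter, Cluh (chr11:74649404-74649503, plus strand) a binding protein of mRNAs for mitochondrial proteins, Aldh18a1 (chr19:40588464-40588563, minus strand) the first enzyme of proline synthesis, and Hspd1 (chr1:55088244-55088343, minus strand) the mitochondrial chaperonin.
Nop2: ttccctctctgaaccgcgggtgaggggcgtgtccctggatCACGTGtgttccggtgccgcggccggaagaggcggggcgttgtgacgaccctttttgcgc
Utp18: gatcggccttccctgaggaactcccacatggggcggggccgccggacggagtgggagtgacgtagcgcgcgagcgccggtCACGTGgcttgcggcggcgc
Slc20a1: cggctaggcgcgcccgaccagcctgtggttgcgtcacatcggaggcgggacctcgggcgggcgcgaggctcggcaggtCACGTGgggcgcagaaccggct
Cluh: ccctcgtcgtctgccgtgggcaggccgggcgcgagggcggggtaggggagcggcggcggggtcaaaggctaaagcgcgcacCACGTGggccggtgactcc
Aldh18a1: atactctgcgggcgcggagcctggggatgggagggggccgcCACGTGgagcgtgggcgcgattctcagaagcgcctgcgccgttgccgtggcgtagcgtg
Hspd1: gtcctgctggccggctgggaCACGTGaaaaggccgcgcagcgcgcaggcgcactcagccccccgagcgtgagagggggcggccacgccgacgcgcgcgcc

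The letters begin 60 bases before the start in Nop2, 20 in Utp18, 22 in Slc20a1, 19 in Cluh, 59 in Aldh18a1 and 80 in Hspd1. The changes of these genes were -1.21, -1.08, -1.38, -1.17, -1.1 and -1.03, the last -0.98 without 18 h replicate 1. In Nop2, 143 and 173 CPM in untreated cells stood against 53.1 and 83.6 CPM at 18 h, and in Utp18 93.3 and 107 CPM against 39.1 and 55.6 CPM. Both genes thus had non-overlapping libraries, with replicate 1 the lower at each time.

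Of the Myc and Max network, the repressor members Mxd4 and Mxd3, which compete with MYC for MAX, rose. They were 2 of 12 genes tested (16.7%, against 2.93% of all genes tested). Mxd4 went from 35.3 and 44.8 CPM to 135 and 132 CPM (1.73 ± 0.17, FDR = 1.57e-06, edgeR). Mxd3 went from 7.16 and 7.50 CPM to 17.2 and 13.6 CPM (1.07 ± 0.18), shared 31.7% of its exon bases with Prelid1, and lost its call without 18 h replicate 1 (0.87) and with a GC correction (0.86). Myc was read at 203 and 185 CPM untreated and at 104 and 69.7 CPM at 18 h, a change of -1.16 ± 0.32 that missed the threshold (FDR = 0.017, edgeR) although the libraries did not overlap. Max was at -0.33 ± 0.10 (FDR = 0.0132).

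Genes of the ER stress and ATF4 response list gave 5 lower and 1 higher DEG of 33 tested. These were 15.2% and 3.03%, against 1.87% and 2.93% of all genes tested, and the list median was -0.466. Atf4, the transcription factor of this response, fell from 316 and 319 CPM to 148 and 160 CPM (-1.05 ± 0.08, FDR = 1.1e-07, edgeR). Asns, the asparagine synthetase, fell from 126 and 124 CPM to 54.6 and 53.6 CPM (-1.21 ± 0.09). Chac1, which degrades glutathione, fell from 19.1 and 19.0 CPM to 7.39 and 3.54 CPM (-1.79 ± 0.27). Aldh18a1 fell by 1.1 on the log2 scale, and Slc7a5, the large neutral amino acid transporter, by 1.09, a value of -0.99 without untreated replicate 2. The serine synthesis genes Psat1 (-0.82 ± 0.08) and Phgdh (-0.77 ± 0.09) passed the FDR but not the fold threshold. Ddit3, the pro-apoptotic factor of ER stress, was at 0.19 ± 0.17, with 84.3% of its exon bases shared with another gene. Ddit4, an inhibitor of mTORC1, was the gene that rose, from 181 and 144 CPM to 389 and 290 CPM (1.06 ± 0.18), but not in the fits without 18 h replicate 1 (0.81) or untreated replicate 2 (0.91) or with a GC correction (0.80).

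In sterol and fatty acid metabolism the genes that fell encode enzymes of synthesis and those that rose encode exporters. Of 36 genes tested 4 fell (11.1%, against 1.87% of all genes tested) and 2 rose (5.56%, against 2.93%). At an FDR under 0.01 alone 19 were lower, against 11.4% of all genes tested, and the median was -0.558. Those that fell were Idi1 (-1.28 ± 0.18) and Msmo1 (-1.1 ± 0.26) of the cholesterol pathway, Fads2, a fatty acid desaturase (31.0 and 25.9 CPM against 12.5 and 12.98 CPM, -1.16 ± 0.14), and Fasn, the fatty acid synthase (428 and 555 CPM against 183 and 298 CPM, -1.03 ± 0.20). Msmo1 and Fasn lost their calls without 18 h replicate 1 (-0.85 and -0.74) or untreated replicate 2 (-0.99 and -0.83), Msmo1 also without untreated replicate 1 (-1.23), and without 18 h replicate 2 the list had 9 lower genes. Abca1, the cholesterol exporter to apolipoproteins, rose from 108 and 95.7 CPM to 316 and 278 CPM (1.54 ± 0.10, FDR = 1.49e-08, edgeR), and Abcg1, which exports sterols to lipoprotein particles, from 66.7 and 78.1 CPM to 161 and 158 CPM (1.14 ± 0.11). Slc16a1, a lactate transporter, was the only call among 34 glycolysis and hypoxia genes (2.94% called lower, against 1.87% of all genes tested). It was at 248 and 241 CPM untreated and 89.98 and 107 CPM at 18 h (-1.31 ± 0.09).

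The cell cycle lists were not alike at 18 h. None of 44 DNA replication genes and none of 44 mitosis genes was called, with medians of -0.232 and -0.0817, and at an FDR under 0.01 none and 2 of them were higher and 6 and 1 lower. Over all genes tested 4.8% were called, and 11.4% were higher and 11.4% lower at an FDR under 0.01. Mki67, the proliferation marker, was at 3762 and 3450 CPM untreated and 3533 and 3412 CPM at 18 h (-0.05 ± 0.10). Top2a was at 1594 and 1477 CPM, then 1266 and 1305 CPM (-0.26 ± 0.09), and Rrm1, of ribonucleotide reductase, was at -0.43 ± 0.08. Of 15 G1 cyclins, CDKs and partners only Ccnd2, the cyclin D2 gene, fell (6.67%, against 1.87% of all genes tested). It went from 301 and 351 CPM to 153 and 163 CPM (-1.04 ± 0.09), and without untreated replicate 2 its value was -0.93. At an FDR under 0.01 alone 7 of the 15 were lower and 2 higher, with a list median of -0.409. Ccng2, a cyclin linked to growth arrest, rose from 259 and 199 CPM to 533 and 420 CPM (1.06 ± 0.14), with 0.85 without 18 h replicate 1 and 0.88 without untreated replicate 2. It was the only call among 10 genes of the list of CDK inhibitors and pocket proteins (10%, against 2.93% called higher of all genes tested). In that list 4 were higher and none lower at an FDR under 0.01, with a median of 0.358. Cdkn1b, the p27 inhibitor, was higher below the fold threshold (0.62 ± 0.16, FDR = 0.00603, edgeR), and Cdkn1a was at 0.29 ± 0.16. Letters of E2F sites (TTCCCGC and TTGGCGC) and of the CHR element (TTTGAA) were also counted, on both strands. In the genes called lower TTCCCGC was in 11.1% of their promoters against 8.61% of all tested, TTGGCGC in 4.17% against 4.29%, and TTTGAA in 13.4% against 12.1%.

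Among 15 pro-apoptotic Bcl-2 family genes 1 rose (6.67%, against 2.93% of all genes tested). It was Bmf, a BH3-only protein, which went from 15.7 and 19.2 CPM to 50.1 and 42.3 CPM (1.40 ± 0.15, FDR = 1.99e-06, edgeR). Bcl2l11, which encodes BIM, was at 46.2 and 37.0 CPM untreated and 82.2 and 57.0 CPM at 18 h (0.75 ± 0.17), and Bbc3, which encodes PUMA, at 23.2 and 29.7 CPM, then 43.9 and 44.0 CPM (0.73 ± 0.12), so that their libraries did not overlap but the fold threshold was not reached. Hrk and, outside this family, the IL-7 receptor gene Il7r had at most 1 read in any library of the clone, and neither was tested. Bcl2l15 was at -0.23 ± 0.15. None of 6 anti-apoptotic members was called, among them Mcl1 (0.30 ± 0.09), Bcl2 (-0.35 ± 0.11) and Bcl2l1 (0.29 ± 0.17). None of 24 caspase and death receptor genes was called, and Ripk3, the necroptosis kinase, was at 0.469 and 0.310 CPM untreated and 0.569 and 0.224 CPM at 18 h (0.05 ± 0.59). Of 22 p53 targets only Trp53inp1, which is also induced by FoxO factors, rose (4.55%, against 2.93% of all genes tested). It went from 81.5 and 80.2 CPM to 207 and 163 CPM (1.19 ± 0.20), with 0.99 without 18 h replicate 1.

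Among the genes of the receptor itself and its coreceptors the calls went 1 way. Of 17 BCR chain and coreceptor genes 5 rose (29.4%, against 2.93% of all genes tested) and none fell. At an FDR under 0.01 alone 14 were higher, against 11.4% of all genes tested. All 17 values were positive, with a median of 0.627. Of the 5 genes 4 encode inhibitory receptors, and the other, Ms4a1, the surface antigen CD20. Fcgr2b, the inhibitory receptor for IgG, rose from 64.6 and 63.5 CPM to 134 and 150 CPM (1.15 ± 0.09, FDR = 1.11e-07, edgeR). Siglecg, an inhibitory lectin, went from 47.0 and 52.3 CPM to 104 and 107 CPM (1.08 ± 0.08), Cd22, another, from 181 and 194 CPM to 395 and 376 CPM (1.04 ± 0.09), and Pirb, an inhibitory receptor for MHC class I, from 30.9 and 33.7 CPM to 62.9 and 69.3 CPM (1.03 ± 0.12). Ms4a1 went from 115 and 136 CPM to 322 and 361 CPM (1.45 ± 0.27). The signalling chains Cd79a (0.53 ± 0.08), Cd79b (0.63 ± 0.09) and Ighm (0.34 ± 0.08) were higher at an FDR under 0.01 and below the fold threshold. Without untreated replicate 1 the list had 2 calls, and Ms4a1 (1.30), Siglecg (0.98), Cd22 (0.96) and Pirb (0.95) were not among them. Cd22 was also lost without 18 h replicate 1 (0.98), and Ms4a1 (1.33) and Pirb (0.93) without 18 h replicate 2. With a GC correction it also had 2, since Siglecg (0.96), Cd22 (0.91) and Pirb (0.99) stayed under the fold threshold.

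Of the signalling genes downstream of the receptor, 1 of 32 proximal signalling genes rose (3.12%, against 2.93% of all genes tested), while 16 were higher and none lower at an FDR under 0.01 alone, which 11.4% of all genes tested were in each direction. It was Bank1, an adaptor that links LYN to calcium release, at 12.7 and 18.2 CPM untreated and 35.5 and 44.2 CPM at 18 h (1.36 ± 0.16). Of 23 FoxO and PI3K genes 3 rose (13%, against 2.93% of all genes tested). Pik3ip1, an inhibitor that binds PI3K, went from 3.28 and 3.16 CPM to 14 and 9.10 CPM (1.84 ± 0.22). Sesn3, a sestrin, went from 61.8 and 62.3 CPM to 167 and 153 CPM (1.36 ± 0.11). Pik3r5, a regulatory subunit of PI3K, went from 0.803 and 0.930 CPM to 1.92 and 1.75 CPM (1.08 ± 0.26). The call of Pik3r5 was lost in 3 of the 4 fits without 1 library of the comparison, with values of 0.95 to 1.19. Of 14 ERK feedback genes 3 rose (21.4%, against 2.93% of all genes tested). Dusp6, an ERK phosphatase, went from 12.5 and 12.03 CPM to 42.5 and 33.9 CPM (1.64 ± 0.26). The others were Rasa3, a RAS GTPase-activating protein (1.19 ± 0.13), and Spred3, a RAF inhibitor (1.03 ± 0.17). Spred3 was at 0.65 without 18 h replicate 1 and 0.92 without untreated replicate 2. Zfp36, which destabilises cytokine mRNAs, was the only call among 21 immediate early genes (4.76% called higher, against 2.93% of all genes tested). It went from 50.9 and 51.5 CPM to 133 and 84.0 CPM (1.08 ± 0.21). The call was lost without untreated replicate 1, untreated replicate 2 or 18 h replicate 1 (1.04, 1.09 and 0.69). Egr1 was at 9.10 and 10.8 CPM untreated, and at 71.5 CPM in replicate 1 but 21.9 CPM in replicate 2 at 18 h (FDR = 0.0678). Of 22 NF-kB subunits and inhibitors 2 fell (9.09%, against 1.87% of all genes tested). Nfkbid, a nuclear IkB protein, went from 369 and 416 CPM to 170 and 141 CPM (-1.34 ± 0.12, FDR = 3.78e-07), and Tnfaip3, the A20 inhibitor, from 125 and 106 CPM to 66.6 and 47.5 CPM (-1.02 ± 0.26), a call lost without any 1 of the 4 libraries (-0.82 to -1.30). None of 19 calcium and NFAT genes was called, Atp2a3, a calcium pump, being at 0.67 ± 0.12.

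The class II transactivator and the genes of peptide loading rose at 18 h. Of 20 genes of antigen presentation by MHC class II, 6 were called higher (30%, against 2.93% of all genes tested) and none lower. The list median was 0.914. Ciita, the master transactivator of these genes (ENSMUSG00000022504, chr16:10480014-10531064), went from 1.47 and 1.55 CPM to 4.83 and 6.71 CPM, a 3.8-fold change (1.93 ± 0.24, FDR = 1.09e-05, edgeR). Its level stayed below that of parental cells, at 24.95 and 28.3 CPM untreated and 81.7 and 84.6 CPM at 18 h. In clone #A-59 it was at 7.59 and 9.63 CPM, then 43.9 and 45.0 CPM. Genes for 4 subunits of the peptide exchange factors DM and DO followed. H2-Ob rose from 8.84 and 9.42 CPM to 36.5 and 29.7 CPM (1.86 ± 0.18), H2-DMb1 from 5.22 and 7.69 CPM to 18.3 and 17.2 CPM (1.46 ± 0.20), H2-DMa from 19.0 and 20.3 CPM to 47.8 and 44.7 CPM (1.24 ± 0.13), and H2-DMb2 from 22.2 and 32.9 CPM to 55.5 and 57.6 CPM (1.03 ± 0.20). H2-DMb1 and H2-DMb2 are close copies of each other, so that their reads may not be fully separated. Cd74, the invariant chain, was the most abundant, at 326 and 411 CPM untreated and 791 and 779 CPM at 18 h (1.09 ± 0.12). Without untreated replicate 1 the values of Cd74 and H2-DMb2 were 0.91 and 0.75, and with a GC correction 0.90 and 0.88. H2-DMb2 was at 0.98 without 18 h replicate 2. The classical chains were low in this clone. H2-Aa was at 1.67 and 2.05 CPM untreated and 3.41 and 4.51 CPM at 18 h (1.08 ± 0.36, FDR = 0.0313), H2-Eb1 at 14.4 and 16.6 CPM, then 28.9 and 26.8 CPM (0.84 ± 0.19), and H2-Ab1 at or under 0.224 CPM at both times. H2-Aa was at 68.2 and 101 CPM in untreated parental cells and at 222 and 246 CPM at 18 h, and in clone #A-59 at 9.38 and 14.1 CPM, then 57.8 and 56.9 CPM. H2-Ab1 was at 7.85 and 14.9 CPM in untreated parental cells. The promoters of 4 of these genes are printed because they share the letters of the Y box, CCAAT, which NF-Y binds (shown in capitals as ATTGG where it lies on the other strand). The 100 bases before the start are given for H2-Ob (chr17:34238805-34238904, plus strand), H2-DMb1 (chr17:34153091-34153190, plus strand), H2-DMb2 (chr17:34145149-34145248, plus strand) and H2-Aa (chr17:34287824-34287923, minus strand), all from RefSeq on GRCm38.p6.
H2-Ob: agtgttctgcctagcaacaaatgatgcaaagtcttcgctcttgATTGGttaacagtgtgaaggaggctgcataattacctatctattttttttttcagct
H2-DMb1: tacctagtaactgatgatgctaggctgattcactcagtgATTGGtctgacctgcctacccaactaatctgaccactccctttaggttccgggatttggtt
H2-DMb2: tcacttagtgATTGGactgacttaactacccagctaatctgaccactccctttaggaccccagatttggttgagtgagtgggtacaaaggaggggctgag
H2-Aa: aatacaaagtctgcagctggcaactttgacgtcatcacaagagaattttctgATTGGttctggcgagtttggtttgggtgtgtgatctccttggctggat

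The letters begin 57, 61, 90 and 48 bases before the start in this order. CCAAT on either strand was in 9 of 15 matched promoters of the list (60%) and in 38.9% of the promoters of all genes tested, 31.3% of those called higher and 39.8% of those called lower, so that its share among the higher genes was below that of all genes tested. It was also in 19 of 25 promoters (76%) of the cholesterol and fatty acid synthesis list and in 21 of 30 (70%) of the ER stress and ATF4 response list. NF-Y subunit genes were not called, Nfya at 0.03 and Nfyb at -0.41 ± 0.09. Of 22 MHC class I genes none was called, with the chaperone genes Canx (-0.40 ± 0.10) and Calr (-0.32 ± 0.10) the most abundant.

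Receptors for positioning in lymphoid tissue rose in 5 of 17 cases (29.4%, against 2.93% of all genes tested) and fell in none. The list median was 0.266, and 4 of the 5 are described. Ccr7, which directs B cells to the T cell zone, went from 0.669 and 0.620 CPM to 2.81 and 2.61 CPM (2.06 ± 0.32, FDR = 8.78e-05, edgeR). Gpr183, the oxysterol receptor EBI2, went from 3.08 and 3.22 CPM to 15.4 and 10.7 CPM (2.05 ± 0.27), and S1pr4, a receptor for sphingosine 1-phosphate, from 5.62 and 6.39 CPM to 18.3 and 15.4 CPM (1.49 ± 0.17). Ccr1, a receptor for inflammatory chemokines, was at 0.937 and 0.682 CPM untreated and 4.02 and 3.13 CPM at 18 h (2.14 ± 0.47). It lost its call without untreated replicate 1 (2.36), untreated replicate 2 (1.93) or 18 h replicate 1 (1.93), and each of these fits left 3 calls in the list. Cxcr4, the receptor for CXCL12, was at 19.7 and 12.5 CPM untreated and 11.3 and 7.50 CPM at 18 h (-0.77 ± 0.24, FDR = 0.0203). Of 20 integrins and adhesion genes 3 rose (15%, against 2.93% of all genes tested). Among them were Itgb7, the integrin chain of gut homing (10.7 and 10.7 CPM against 40.9 and 35.4 CPM, 1.83 ± 0.14) and Pecam1, an adhesion receptor of the immunoglobulin family (41.1 and 36.7 CPM against 107 and 91.9 CPM, 1.35 ± 0.11).

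Costimulatory and activation surface genes gave 3 higher of 23 tested (13%, against 2.93% of all genes tested). They were Icosl, the ligand of ICOS (6.36 and 8.18 CPM against 19.6 and 22.5 CPM, 1.53 ± 0.16), Cd38 (53.6 and 42.0 CPM against 108 and 98.6 CPM, 1.11 ± 0.13, and 0.95 without untreated replicate 2) and Slamf6 (1.01 ± 0.16, and 0.96 and 0.97 without untreated replicate 1 and 18 h replicate 2). Cd40 was lower below the fold threshold, at 216 and 266 CPM untreated and 108 and 146 CPM at 18 h (-0.92 ± 0.14). Cd27 (1.08 ± 0.19) and Tnfrsf25 (1.07 ± 0.21) were the 2 of 14 TNF receptor family genes that rose (14.3%, against 2.93% of all genes tested). Cd27 was at 0.76 without 18 h replicate 1 and at 0.99 without untreated replicate 2, and Tnfrsf25 at 0.81 without untreated replicate 1 and at 0.97 without 18 h replicate 2. With a GC correction they were at 0.93 and 0.82, so that no gene of this list was called. Of 20 B cell identity and plasma cell factors 2 fell (10%, against 1.87% of all genes tested) and 1 rose (5%, against 2.93%). Irf4, needed for plasma cell fate, fell from 129 and 137 CPM to 62.3 and 60.4 CPM (-1.12 ± 0.11, FDR = 6.81e-07, edgeR). Sdc1, the plasma cell antigen CD138, fell from 3.41 and 4.22 CPM to 1.42 and 1.68 CPM (-1.30 ± 0.22). Mef2c rose from 61.4 and 58.96 CPM to 118 and 126 CPM (1.02 ± 0.10), with 0.99 and 0.94 without untreated replicate 2 and 18 h replicate 2. Pax5, the B lineage factor, was at 1823 and 1884 CPM, then 1820 and 2012 CPM (0.05 ± 0.09). Vpreb3 rose by 1.56 ± 0.17 from 12.7 and 17.7 CPM to 45.4 and 44.6 CPM, with 67.1% of its exon bases shared with another gene.

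**Figure D4:**
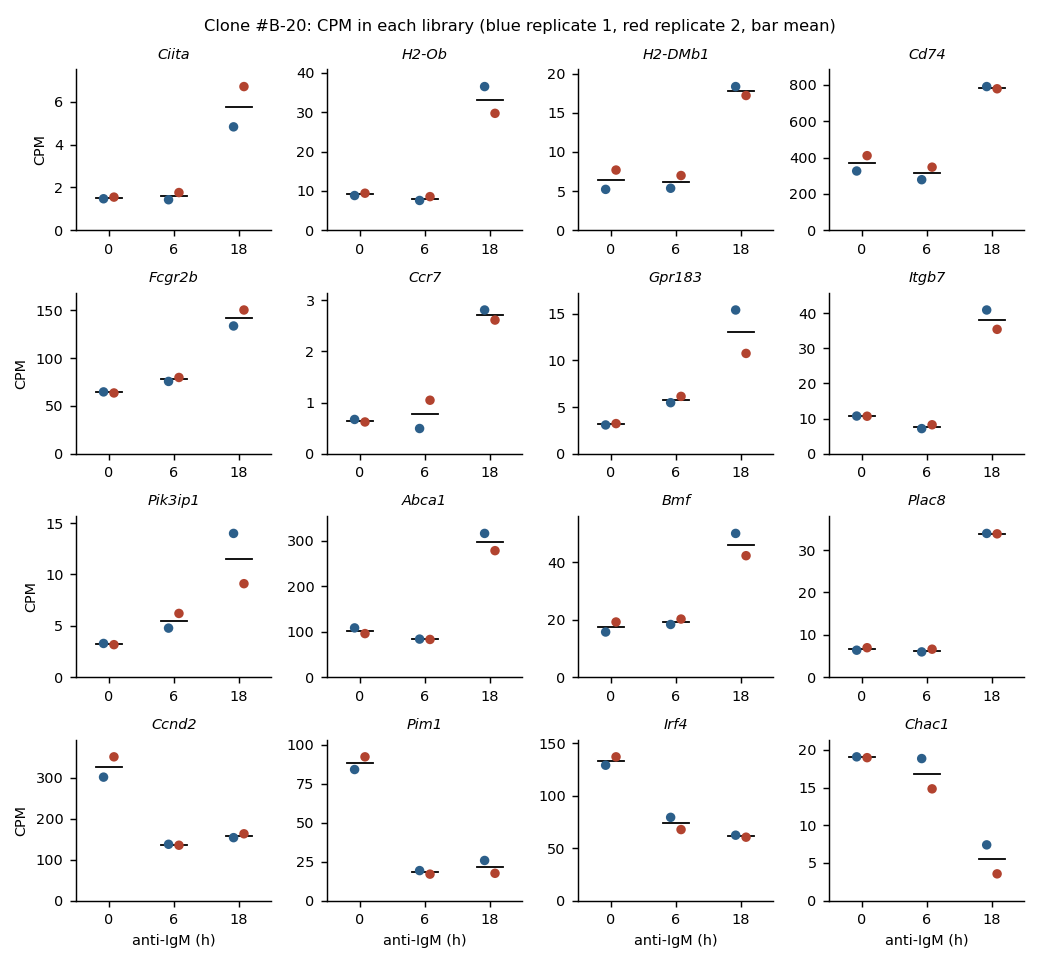
CPM of 16 genes in each of the 6 libraries of clone #B-20 at 0, 6 and 18 h of anti-IgM (blue replicate 1, red replicate 2, bar the mean of 2), on linear axes from 0. The first 12 genes lie higher in both 18 h libraries than in all other libraries, Chac1 lies lower, and Ccnd2, Pim1 and Irf4 are below both untreated libraries at 6 h as well.

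The other lists held at most 2 DEGs each. Called higher were 5.88% of interferon-stimulated genes and 20% of E proteins and Id inhibitors, against 2.93% of all genes tested. Called lower were 5.26% of Wnt and TCF genes and 1.75% of oxidative phosphorylation genes, against 1.87% of all genes tested. Of 34 interferon-stimulated genes Irf7, a transcription factor of the interferon response (53.5 and 47.5 CPM against 109 and 106 CPM, 1.09 ± 0.19), and Rigi, a sensor of viral RNA (50.2 and 54.8 CPM against 113 and 106 CPM, 1.06 ± 0.11), rose. Of 57 oxidative phosphorylation genes Atp5mc1, a subunit of the ATP synthase, fell by 1.05 ± 0.19, of 19 Wnt and TCF genes Axin2, a feedback inhibitor, by 1.1 ± 0.16, and of 5 E proteins and Id inhibitors Id2 rose by 1.73 ± 0.42, with 36.2% of its exon bases shared. Irf7 lost its call with a GC correction (0.90). Rigi lost its call without replicate 1 of the untreated (0.97) or of the 18 h group (0.99), Atp5mc1 without 18 h replicate 1 (-0.87) and Axin2 without untreated replicate 2 (-0.96). Id2 lost its call without either untreated library (1.99 and 1.48) or without 18 h replicate 1 (0.82). No gene was called among 12 replication-dependent histones, 11 Kruppel-like factors (Klf2 at 0.82 ± 0.16), 7 mitochondrially encoded genes, 21 TGF-beta and BMP genes and 3 erythroid markers. Smad1, a mediator of BMP signals, was at 3.01 and 2.05 CPM untreated and 0.782 and 1.16 CPM at 18 h (-1.38 ± 1.11, FDR = 0.379, edgeR). Of further genes, Nrp2, the neuropilin 2 gene, was at 137 and 159 CPM untreated and 62.4 and 86.3 CPM at 18 h, just short of the fold threshold (-0.99 ± 0.12, FDR = 7.9e-06), and Sgk1, a kinase downstream of PI3K, at 5.55 and 6.76 CPM, then 8.74 and 8.32 CPM (0.47 ± 0.20).

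By size, the 12 higher genes of largest change with a mean of at least 100 counts and a symbol that does not begin with Gm and a digit were led by Plac8 (ENSMUSG00000029322, chr5:100551589-100572253), a small cysteine-rich protein gene, at 6.36 and 6.94 CPM untreated and 33.9 and 33.8 CPM at 18 h, a 5.09-fold change (2.35 ± 0.13, FDR = 6.96e-09, edgeR). Mmp11, a matrix metalloproteinase gene, followed at 2.33 ± 0.22 and Sbk1, a kinase gene, at 2.28 ± 0.18. Il10ra, the IL-10 receptor chain, went from 3.28 and 2.91 CPM to 13.4 and 11.6 CPM (2.01 ± 0.18), and Serpinb1a, a protease inhibitor gene, from 10.2 and 13.6 CPM to 41.1 and 51.8 CPM (1.96 ± 0.22). The Fc receptors for IgM, Fcmr (2.01 ± 0.12) and Fcamr (2.13 ± 0.23), both rose. Grhl3 (2.11 ± 0.52) had 10.63 CPM in replicate 1 and 3.88 CPM in replicate 2 at 18 h and lost its call in 3 of the 4 fits without 1 library, with 1.19 without 18 h replicate 1, 2.52 without untreated replicate 1 and 1.77 without untreated replicate 2. Gm2a (2.18) would have ranked among the 12 but for its symbol. Among lower genes Ttn, the titin gene (ENSMUSG00000051747), went from 26.7 and 32.2 CPM to 5.79 and 5.56 CPM, a 5.19-fold change (-2.37 ± 0.14, FDR = 7.9e-09), and Palld, an actin-binding protein gene, from 9.71 and 11.4 CPM to 1.60 and 2.65 CPM (-2.31 ± 0.21). Ccnb1ip1 was the most abundant of the 12, at 139 and 133 CPM untreated and 25.6 and 35.9 CPM at 18 h (-2.15 ± 0.16). Pim1, a survival kinase gene, went from 84.0 and 92.1 CPM to 25.7 and 17.5 CPM (-2.03 ± 0.17), and Bcat1, which transaminates branched-chain amino acids, from 35.3 and 33.1 CPM to 11.4 and 8.47 CPM (-1.78 ± 0.15). Calls of the other 23 of these 24 genes stood in all 15 alternative fits.

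Fewer genes were called at 6 h than at 18 h. At 6 h 59 genes were called against untreated cells (0.385%), and of the 735 DEGs at 18 h 14 of the higher and 13 of the lower ones were among them. The 449 higher and 286 lower DEGs, which were chosen by their 18 h values, had 6 h medians of 0.279 and -0.199. Direct comparison of 18 h with 6 h gave 682 DEGs (4.45%), of which 423 (2.76%) were higher and 259 (1.69%) lower at 18 h, and 226 of the 449 and 130 of the 286 were called in the same direction there. These comparisons share libraries and are not independent. One of the 6 h libraries, replicate 2, stood apart, with 6.69% of its counts in its 10 most abundant genes against 3.89 to 4.61% elsewhere in the series. Without it 714 genes were called at 18 h against untreated. Among the genes of lowest adjusted p between 6 and 18 h were Abca1 (83.6 and 82.8 CPM at 6 h, 1.84 higher at 18 h), Plac8, Itgb7, Siglecg and the calponin gene Cnn2 among the higher, and Slc16a1, Asns, Hspd1, Ybx3, a cold shock domain protein gene, and Nefh, a neurofilament gene, among the lower. Ribosome biogenesis genes had a 6 h median of -0.136. In contrast Pim1 (19.2 and 16.9 CPM), Ccnd2 (137 and 135 CPM), Nfkbid (140 and 126 CPM), Shank1 (68.5 and 55.5 CPM), Fcmr (33.7 and 32.2 CPM) and Nab2 (23.3 and 21.9 CPM) had at 6 h values close to those at 18 h. Kif26a, a kinesin gene, was at 8.90 and 7.94 CPM untreated and rose to 25.3 and 21.8 CPM by 6 h, but both 18 h libraries were back at 5.94 and 5.15 CPM, so that it was higher at 6 h than at either other time.

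The same comparison in parental cells gave 1579 DEGs (10.3%) and in clone #A-59 1342 (8.76%), against 4.8% in clone #B-20. Of the 449 genes that rose in clone #B-20, 306 were also called higher in parental cells and 280 in clone #A-59, and of the 286 that fell 237 and 232 were called lower there. For these genes the parental medians were 1.26 and -1.52, and those of clone #A-59 1.17 and -1.40. Of the 1579 parental DEGs 1036 were not called in clone #B-20, but 1004 of the 1036 had the parental direction there. The median of the 1036 in that direction was 0.769 in the clone and 1.27 in parental cells. Since these genes were picked for passing in parental cells and failing in the clone, a smaller clone median was built into the choice. Ribosome biogenesis medians were -1.34 in parental cells, -1.32 in clone #A-59 and -1.04 in clone #B-20, and MHC class II medians 1.04, 1.22 and 0.914. A smaller number of calls does not by itself show that the responses differ, and the difference was therefore tested as an interaction.

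In the main test 25 genes (0.163%) responded differently in clone #B-20 than in parental cells, and 5 (0.0326%) differently than in clone #A-59. The counts were 47 and 14 with DESeq2, 80 and 51 without a filter on low counts and 38 and 12 with the replicate number as a block. At an unadjusted p under 0.05 there were 2079 and 1989. Shank1, a synaptic scaffold gene, had the lowest adjusted p: it went from 16.7 and 17.7 CPM to 79.3 and 81.0 CPM in clone #B-20, and from 122 and 145 CPM to 173 and 151 CPM in parental cells, a difference in response of 1.95 ± 0.16 (FDR = 3.85e-06, edgeR). The untreated level of the clone was thus below that of parental cells, and its 18 h level too. Fcmr showed the same order, at 9.37 and 9.11 CPM, then 35.4 and 39.0 CPM in the clone, and at 61.1 and 70.3 CPM, then 119 and 104 CPM in parental cells (difference 1.24 ± 0.16, FDR = 0.000992). Nab2, a corepressor of EGR factors, differed by 1.55 ± 0.24, shared 38.1% of its exon bases with another gene, and lost its call in 6 of the 8 fits that left out 1 library. Fcmr and Slc19a1 lost theirs in 3 of the 8. Rnf157, a ubiquitin ligase gene, was at 36.7 and 37.5 CPM untreated and 42.7 and 40.6 CPM at 18 h in the clone, while parental cells went from 49.98 and 57.5 CPM to 18.0 and 19.6 CPM (difference 1.68 ± 0.17). The folate carrier gene Slc19a1 fell in both, from 40.2 and 42.4 CPM to 14.7 and 19.4 CPM in the clone and from 45.2 and 50.2 CPM to 7.94 and 6.22 CPM in parental cells (difference 1.5 ± 0.20).

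In the other direction, Lztfl1, a regulator of ciliary trafficking, was at 14.8 and 15.8 CPM, then 11.9 and 14.8 CPM in clone #B-20, but went from 26.9 and 23.8 CPM to 118 and 116 CPM in parental cells (difference -2.403 ± 0.23, FDR = 2.72e-05, edgeR). Il6ra, the IL-6 receptor chain, was at 32.7 and 31.4 CPM, then 21.5 and 24.5 CPM in the clone and at 48.6 and 42.1 CPM, then 74.9 and 85.1 CPM in parental cells (difference -1.30 ± 0.15). Kcng1, a potassium channel gene, stood out by its level, with 29.7 and 36.5 CPM in the untreated clone against 0.398 and 0.786 CPM in untreated parental cells (difference in response -2.08 ± 0.34), and lost its call in 7 of the 8 fits that left out 1 library. Camkk1, a kinase gene of calcium signalling, was at 0.99 in the clone and at 2.58 in parental cells (difference -1.58 ± 0.27), and lost its call in all 8. Both lost it with the compared libraries alone and after thinning. Against clone #A-59 the 5 genes were Asns (-1.21 in #B-20 and -2.28 in #A-59, difference 1.07 ± 0.13, FDR = 0.00152), Aldh18a1 (difference 1.02 ± 0.14), Ikbke, an IkB kinase gene (difference 1.76 ± 0.23), the pseudogene Rps13-ps2, whose reads may stem from its parent gene, and Apoe, which was at 28.3 and 29.5 CPM, then 25.8 and 30.3 CPM in #B-20 and at 56.1 and 59.4 CPM, then 142 and 144 CPM in #A-59 (difference -1.35 ± 0.16). These counts depended on single libraries. Leaving out 1 library in turn gave 5 genes (without untreated parental replicate 2) to 23 against parental cells, and 1 (without 18 h replicate 1 of clone #A-59) to 10 against clone #A-59. With 1 library left out, Rps13-ps2 lost its call in 6 of 8 fits, Aldh18a1 in 5, Ikbke in 4 and Asns in 2. The calls of Shank1, Rnf157, Lztfl1, Il6ra and Apoe stood in every fit run.

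**Figure D5:**
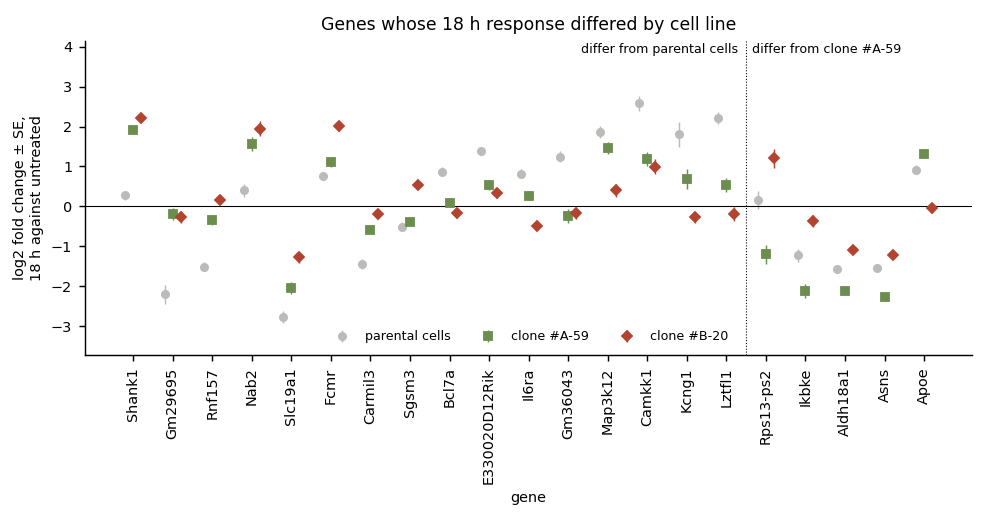
log2 fold change ± SE (edgeR) of 18 h against untreated in parental cells (grey circles), clone #A-59 (green squares) and clone #B-20 (red diamonds), for the named genes whose response differed from parental cells (left of the dotted line) or from clone #A-59 (right). In clone #B-20 and parental cells Shank1 is at 2.22 and 0.28, and Lztfl1 at -0.19 and 2.21.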

How the data were processed

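The authors deposited raw counts per gene, 1 table per library. Per the labels and the study's methods, RNA was sequenced from non-stranded mRNA libraries with single-end reads, demultiplexed with bcl2fastq 2.20.0.422, aligned to GRCm38 with STAR 2.5 and counted with featureCounts 1.5.0-p1. Since strand was not kept, genes that overlap share reads, and shares of overlapping exon bases are given where large. The deposited counts were analysed in R 4.3.3 with edgeR 4.0.16 (filterByExpr, TMM, robust quasi-likelihood test with Benjamini-Hochberg adjustment). All 18 libraries were fitted with 1 mean for each of the 9 groups, so that groups of 2 share an estimate of the spread. DEGs had an adjusted p under 0.01 and an absolute log2 fold change over 1, the study's thresholds. With simulated counts for 15318 genes in the comparison of 18 h with untreated cells of clone #B-20, edgeR recovered 100 of 100 genes changed by 1.5 and 100 of 100 changed by 2.5 on the log2 scale, with 0 false calls. The changed genes all had an expected mean of at least 100 counts, and simulated replicates differed only by random spread. So the simulation does not cover genes of low count, changes near the threshold or replicates as unequal as those of the clone. DESeq2 1.42.0 served as an alternative test.

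Named were a fixed set of 17 genes, most of them named in the study's text, the 12 DEGs of largest change in each direction with a symbol (names of predicted genes, clones and pseudogenes left out), a mean of at least 100 counts and libraries that did not overlap, up to 8 called members of each list (or the 3 most abundant where none was called), and up to 8 genes in each direction by adjusted p for each interaction and for 18 h against 6 h. Other genes named were chosen after their values were seen. The comparison and the gene lists were chosen with earlier results of these data known. The labels give only replicate numbers, and the study describes independent experiments. All libraries of clone #B-20 come from 1 clone, so p-values measure the spread between experiments and not between clones. Promoters were taken from RefSeq by symbol. Alternatives were other normalizations, filters, tests, a GC correction, thinning, a block for the replicate number, the compared libraries alone and each library left out. Values of some list members are not reported here.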

Additional observations from a re-analysis of the deposited data

Results flagged for a closer look

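The response to 18 h of anti-IgM differed between clone #B-20 and parental cells, by the interaction term of the edgeR fit, in 25 genes. The named ones with a larger value in the clone, given as the log2 difference in response, were Shank1 (1.946), Gm29695 (1.941), Rnf157 (1.675), Nab2 (1.547), Slc19a1 (1.5), Fcmr (1.245), Carmil3 (1.238) and Sgsm3 (1.054). Those with a smaller value were Lztfl1 (-2.403), Kcng1 (-2.083), Camkk1 (-1.583), Map3k12 (-1.446), Gm36043 (-1.408), Il6ra (-1.3), E330020D12Rik (-1.046) and Bcl7a (-1.042). With 1 library left out, Map3k12 and Gm36043 lost their calls in 7 of 8 fits. Carmil3, Gm29695, E330020D12Rik and Bcl7a lost theirs in 6, and Sgsm3 in 4.

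Between clone #B-20 and clone #A-59 the same term called 5 genes. They were Rps13-ps2 (2.404), Ikbke (1.757), Asns (1.075), Aldh18a1 (1.015) and Apoe (-1.352). Groups held 2 libraries each, so no library could be checked as an outlier within its group.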

How the results depend on the processing

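The 735 DEGs of clone #B-20 at 18 h were 663 with DESeq2, 543 with its shrunken fold changes, 810 without a filter on low counts and 561 in a fit of the compared libraries alone. Direction was followed only for named genes with an FDR under 0.01 in the main fit. None of these changed direction under any setting run. Of 106 named DEGs, 62 kept their call in all 15 settings and 69 when each library was left out in turn. Leaving out 1 library gave 401 to 1018 DEGs, with 246 to 523 higher and 155 to 495 lower, and for 18 h against 6 h 431 to 897. The lowest counts were those without 18 h replicate 1. A GC correction gave 708 DEGs (587 shared with the 735), of which 48.4% were higher, and moved the median of all genes by -0.0481. Without replicate 2 of the 6 h group, an alternative chosen after seeing the data, 714 genes were called.

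Interactions were less stable. Against parental cells the 25 genes became 47 with DESeq2, 80 without a filter, 15 with the compared libraries alone, 15 after thinning and 5 to 23 with 1 library left out. Against clone #A-59 the 5 genes became 14, 51 and 1 under the first 3 of these and 1 to 10 with 1 library left out. The cause was not tested.

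Replicate numbers are not said to mark a shared day, and deviations of same-numbered untreated and 18 h libraries of the clone had a correlation of 0.17. With the number as a replicate block 786 genes were called (728 shared), and 767 with the GC correction added. The block gave 38 genes for the interaction with parental cells and 12 for that with clone #A-59, and 43 and 13 with the GC correction.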

Other observations

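Some families outside the lists also held lower values at 18 h in clone #B-20. They were formed from gene symbols after the values were seen, so their counts are descriptions. Over all genes tested 1.87% were called lower and 2.93% higher, and 11.4% were lower at an adjusted p under 0.01. Of 20 cytosolic aminoacyl-tRNA synthetases, which charge tRNAs for translation, Tars1 and Lars1 were called lower, 17 were lower at an adjusted p under 0.01 (edgeR) and the median log2 fold change was -0.771, beside -0.0257 at 6 h. Of 17 mitochondrial synthetases none was called, with a median of -0.215. Of 12 genes of purine synthesis all had negative values, Gart was called lower, 10 were lower at an adjusted p under 0.01 and the median was -0.705. Of 7 genes of pyrimidine synthesis Ctps1 and Cad were called lower (median -0.568). Among 12 host genes of small nucleolar RNAs Snhg4 and Snhg5 were called lower (median -0.779), and among 9 RNA exosome subunits Exosc1 and Exosc2 (median -0.47). Of 77 mitochondrial ribosomal proteins and 38 proteasome subunits none was called, while 24 of each were lower at an adjusted p under 0.01, with medians of -0.297 and -0.401.

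Higher values were found in smaller families. Of 4 Ypel genes 2 were called higher, with a median of 1.06 (1.5 in parental cells and 1.52 in clone #A-59). Of 10 Rgs genes, which encode regulators of G protein signalling, 2 were called higher and none had a negative value, with a median of 0.584. By contrast, none of 19 V-ATPase subunits, which acidify lysosomes and are also covered by the lysosome and V-ATPase list, was called. Their median was 0.0295, beside 0.0252 over all genes tested.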
